A study of Mus musculus with 6 samples.

Results

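The tetraspanins described here are 10 genes of this family of membrane proteins, *Cd81*, *Cd9*, *Cd82*, *Cd151*, *Cd63*, *Cd37*, *Cd53*, *Tspan32*, *Tspan13* and *Tspan31*, taken by gene symbol from the 34745 genes counted in each library. They were measured by RNA-seq in cultured effector CD8+ T cells (Teff) of WT mice, strain C57BL/6J, and of *Scd-1*-/- mice, strain B6.129-Scd1tm1Ntam/J, with 3 libraries per genotype numbered 1 to 3. In both groups, splenic CD8+ T cells of male mice aged 6 to 8 weeks were purified with magnetic beads, activated with anti-CD3, anti-CD28 and IL-2, and grown on in IL-2 alone until day 6. The deletion was present in every cell of the *Scd-1*-/- mice, and the strains came from different sources, so genotype and origin of the mice cannot be told apart. The labels do not say whether libraries of a genotype came from separate mice or cultures, so p-values measure only the spread between these libraries, which may be technical. As a check of the labels, *Scd1*, which encodes stearoyl-CoA desaturase 1 and is the deleted gene, had counts of 4272, 3074 and 3761 in the WT libraries and of 30, 36 and 20 in the *Scd-1*-/- libraries. All 10 tetraspanins had a mean FPKM (counts divided by the gene's length and the library's total) of at least 1 and were among the 9627 genes tested.

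Tetraspanins cross the membrane 4 times and carry a short and a long extracellular loop. They bind one another and partner proteins laterally, such as integrins, immunoglobulin-family proteins and proteases, and so gather them into membrane domains. In T cells, Cd81 and Cd82 are known as costimulatory molecules, Cd37, Cd53 and Tspan32 are largely restricted to blood cells, and Cd63 is best known from the membranes of late endosomes, lytic granules and exosomes.

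The family spanned more than 2 orders of magnitude in level, and *Cd53* made up most of it. *Cd53* had 475 ± 76.2 FPKM in WT Teff (SD, here and throughout over n = 3 libraries), and the *Scd-1*-/- libraries had 630 ± 29.4 FPKM. *Tspan31* came next in WT Teff, with 121 ± 6.76 FPKM, followed by *Tspan13* with 41.9 ± 1.81 FPKM, *Cd82* with 31.9 ± 2.66 FPKM, *Cd37* with 20.8 ± 3.19 FPKM and *Cd9* with 14.4 ± 6.39 FPKM. *Cd81*, *Tspan32* and *Cd151* lay lower, with 9.42 ± 3.47, 6.73 ± 2.74 and 5.05 ± 0.624 FPKM in WT Teff, and *Cd63* was lowest in WT Teff, with 1.55 ± 0.717 FPKM. In WT Teff, the libraries of *Cd37* and *Cd9*, of *Cd9* and *Cd81*, of *Cd81* and *Tspan32*, and of *Tspan32* and *Cd151* overlapped in range. Within single WT libraries, however, *Cd37* was above *Cd9* and *Tspan32* above *Cd151* in 3 of 3, *Cd81* was above *Tspan32* in 2 of 3 and *Cd9* above *Cd81* in 1 of 3. In *Scd-1*-/- Teff the order of the last 4 was *Cd151*, *Tspan32*, *Cd81* and *Cd63*, with means of 3.91, 3.75, 2.71 and 2.61 FPKM, and the ranges of *Cd151* and *Tspan32*, of *Tspan32* and *Cd81*, and of *Cd81* and *Cd63* overlapped. The 10 genes summed to 727 ± 86.2 FPKM in WT Teff and to 873 ± 46.1 FPKM in *Scd-1*-/- Teff, and *Cd53* contributed 65.1% ± 2.78 and 72.2% ± 0.810 of these sums. The deposited FPKM rest on gene lengths that exceed the longest coding transcript for several members, by 3.48 times for *Tspan32*. With the length of the longest coding transcript, an alternative added after the data were seen, *Cd82* (88.7 FPKM in WT Teff) stood above *Tspan13* (61.1 FPKM) and *Tspan32* (23.4 FPKM) above *Cd81* (19.4 FPKM).

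**Figure D1:**
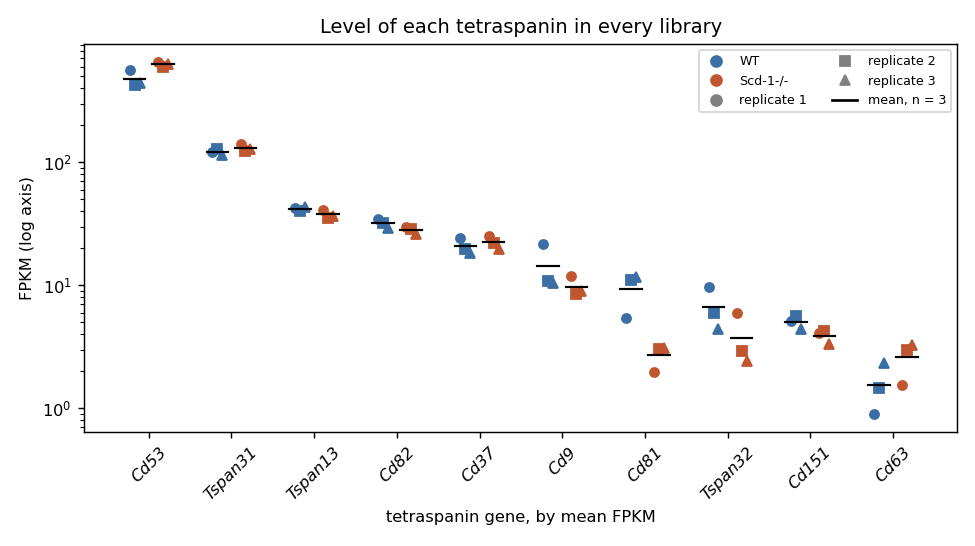
Level of each tetraspanin in each library, in FPKM on a log axis, with 1 symbol per library and the genotypes in separate colours. *Cd53* lies highest in every library, between 424 and 659 FPKM, *Cd63* lies lowest in the WT libraries, between 0.895 and 2.32 FPKM, and the 2 genotypes separate completely for *Cd81*, *Cd151* and *Cd53*.

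The levels of these genes were compared between *Scd-1*-/- and WT Teff. *Cd81* was the member with the largest difference, 3.40-fold lower in *Scd-1*-/- Teff. It was the 1 member of 10 past the thresholds that the study set (at least 1 on the log2 scale in either direction, at an unadjusted p below 0.001), which 0.738% of all genes tested passed (0.239% with lower values). By the stricter rule of an adjusted p under 0.05 (edgeR's quasi-likelihood test, Benjamini-Hochberg over all genes tested), 0 of the 10 members and 0.114% of all genes were called. At an unadjusted p under 0.05, 2 of the 10 members and 10.1% of all genes were found, and by DESeq2 1 member had an adjusted p under 0.05, beside 2.76% of all genes. Of the 10 members, 4 had higher and 6 lower fitted values in *Scd-1*-/- Teff, with a median log2 fold change of -0.14 beside -0.00051 over all genes tested. The libraries of the genotypes did not overlap for 3 members, of which *Cd81* and *Cd151* were lower and *Cd53* was higher in *Scd-1*-/- Teff, whereas 16% of all genes tested did not overlap (8.32% lower and 7.67% higher).

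**Figure D2:**
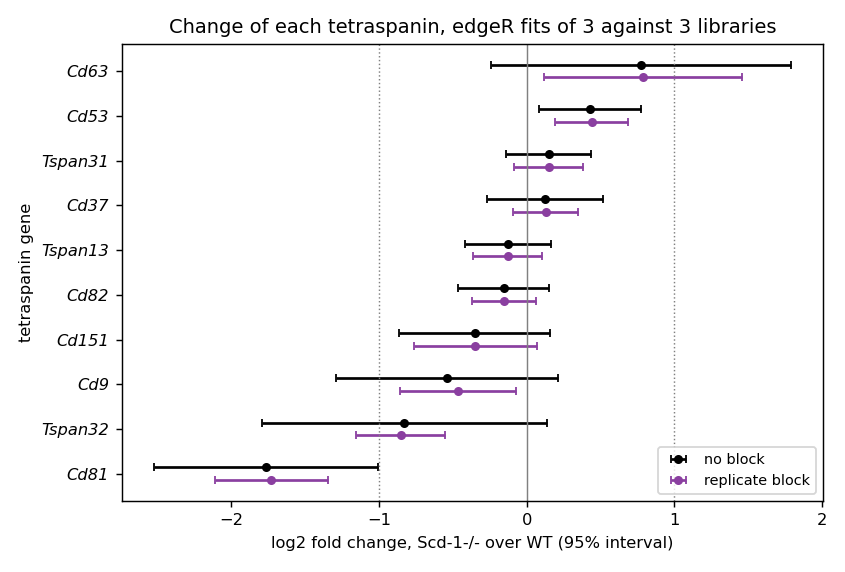
Log2 fold change of *Scd-1*-/- over WT Teff for each tetraspanin with its 95% confidence interval, from the fit on genotype alone and from the fit with the replicate number as a block. The interval of *Cd81* runs from -2.52 to -1.01 without the block and from -2.11 to -1.35 with it, and the intervals of *Tspan32*, *Cd9* and *Cd63* cross 0 only without the block.

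*Cd81* encodes a tetraspanin that is part of the B cell coreceptor and acts as a costimulatory molecule on T cells. Its level was 5.43, 11.1 and 11.8 FPKM in WT replicates 1, 2 and 3 and 1.99, 3.05 and 3.09 FPKM in the *Scd-1*-/- replicates, from counts of 260, 491 and 528 against 98, 136 and 155. The highest *Scd-1*-/- library lay below the lowest WT library, and replicate 1 was the lowest of each genotype. The log2 fold change was -1.77 (SE 0.326), with an unadjusted p of 0.000733 and an adjusted p of 0.0988 by edgeR's quasi-likelihood test. With the replicate number as a block, it was -1.73 (SE 0.164), 3.31-fold lower, with an adjusted p of 0.00329 by the same test, and over the 14 alternatives the adjusted p ranged from 6.91e-05 to 0.489. The call without the block rested on all of the libraries but WT replicate 1. Without WT replicate 2 or 3, or any one of the *Scd-1*-/- libraries, the log2 fold change lay between -1.88 and -1.59 and no longer passed the thresholds, and without WT replicate 1 it was -2.03 and passed them. The study names *Cd81* from these same libraries, so its fall is no independent evidence. Fewer cells with the transcript and less transcript per cell cannot be told apart in these bulk samples.

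Since *Cd81* is also expressed by B cells and other blood cells, the markers of those cells are given beside it. Of 7 B cell markers, *Ms4a1*, *Pax5* and *Blnk* were at 0 in every library, and the summed FPKM was 9.42 to 10.7 in WT and 3.15 to 8.0 in *Scd-1*-/- Teff. Nearly all of that sum came from *Cd79b*, with counts of 342, 278 and 307 in WT and 259, 93 and 123 in *Scd-1*-/- libraries, a log2 fold change of -1.02 (adjusted p of 0.387 by edgeR's test, 0.0434 with the replicate block). *Cd79a*, which encodes the partner of the *Cd79b* product in the B cell receptor, had 0 to 2 counts. The 7 CD8 T cell markers summed to 2024 to 2511 FPKM in WT and 1982 to 2276 FPKM in *Scd-1*-/- Teff, and 0 of them passed either call rule. The 1 with an unadjusted p under 0.05 was *Cd8a*, the CD8 alpha chain, with means of 45.9 ± 2.42 FPKM (WT) and 32.7 ± 4.46 FPKM (*Scd-1*-/-) and groups that did not overlap (-0.46 on the log2 scale, adjusted p of 0.297 by edgeR's test, 0.0166 to 0.841 over its alternatives). The summed FPKM of natural killer cell markers was 1.21 to 1.53 in WT and 2.08 to 9.65 in *Scd-1*-/- libraries, that of myeloid markers 8.65 to 20.04 and 12.1 to 37.2, that of mast cell and basophil markers 0.938 to 1.47 and 1.53 to 13.05, that of platelet markers 0.144 to 0.224 and 0.184 to 0.541, that of erythroid markers 0 to 0.787 and 0.158 to 0.522, and that of CD4 T cell markers 0.156 to 0.672 and 0.0409 to 0.103. With the replicate block, 1 of 1 tested gene of the natural killer list was higher past the thresholds of the study. So was 1 of 2 tested genes each of the mast cell and basophil list and of the myeloid list, beside 1.19% of all genes. That share is no fair comparison for *Klrb1c* and *Mcpt8*, which reached the FPKM minimum only through the *Scd-1*-/- group. Their WT means were 0.748 and 0.461 FPKM, and their *Scd-1*-/- means were 6.28 and 6.31 FPKM. *Klrb1c*, which encodes the natural killer receptor NK1.1, had counts of 37, 55 and 65 in WT and 126, 645 and 602 in *Scd-1*-/- libraries, a log2 fold change of 3.09 (adjusted p of 0.120 by edgeR's test, 0.00591 with the block). The other natural killer markers did not follow it. *Ncr1* had 0, 4 and 5 counts in WT and 0, 0 and 2 counts in *Scd-1*-/- libraries, *Klra8* had 0, 0 and 0 and 1, 0 and 0, and *Kit* had 174, 42 and 68 and 73, 48 and 38. *Mcpt8*, which encodes a basophil protease, had 5, 9 and 3 counts and 8, 110 and 125 counts, 3.77 on the log2 scale (adjusted p of 0.237, 0.0264 with the block). In its list, *Ms4a2* was at 0 in every library, *Fcer1a* had 0, 0 and 0 counts and 0, 1 and 3 counts, and *Cpa3* had 25, 4 and 18 counts and 22, 83 and 66 counts. *Itgax*, which encodes the integrin chain CD11c, had 219, 39 and 49 counts and 678, 186 and 157 counts, 1.69 on the log2 scale (adjusted p of 0.529, 0.00591 with the block). Over the alternatives, the adjusted p ranged from 6.23e-06 to 0.592 for *Klrb1c*, from 0.000399 to 0.710 for *Mcpt8* and from 0.00205 to 0.996 for *Itgax*. The latter 2 overlapped between the genotypes, and without *Scd-1*-/- replicate 1 the log2 fold changes of *Klrb1c* (3.54) and *Mcpt8* (4.31) passed the thresholds, while that of *Itgax* was 0.74. The part of other cells in the values of the tetraspanins was not tested.

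*Tspan32* encodes a tetraspanin of blood cells and is the nearest tested gene on one side of *Cd81*, with 33095 bases between them. *Tspan32* (ENSMUSG00000000244) lies on chromosome 7 at 143005046 to 143019644 and *Cd81* (ENSMUSG00000037706) at 143052739 to 143067934, both on the plus strand of GRCm38. The level of *Tspan32* was 9.76, 6.01 and 4.42 FPKM in WT replicates 1, 2 and 3 and 5.92, 2.91 and 2.42 FPKM in the *Scd-1*-/- replicates. The genotypes overlapped, because *Scd-1*-/- replicate 1 lay between WT replicates 2 and 3, but within each replicate number the *Scd-1*-/- library was lower. The log2 fold change was -0.83 (SE 0.415) with an adjusted p of 0.564 by edgeR's quasi-likelihood test. With the replicate block, it fell by 0.85 on the log2 scale (SE 0.131), 1.81-fold, with an adjusted p of 0.0162, and the adjusted p ranged from 0.0162 to 0.997 over its 14 alternatives. The blocked fit called 2 of the 10 members at an adjusted p under 0.05, *Cd81* and *Tspan32*, both lower, beside 4.7% of all genes (2.06% lower), and 1 of 10 past the thresholds of the study, beside 1.91% of all genes. The size of the *Tspan32* difference depended on replicate 1: it was -0.44 without WT replicate 1 and -1.33 without *Scd-1*-/- replicate 1.

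The tested genes flanking this pair did not pass either call rule. *R74862*, a noncoding transcript on the opposite strand that shares 104 exonic bases with *Cd81* (3.61% of the exonic bases of *Cd81*), had 11, 5 and 15 counts in WT and 5, 0 and 0 counts in *Scd-1*-/- libraries and was under the FPKM minimum. *Tssc4*, which starts 1315 bases beyond *Cd81*, had a log2 fold change of -0.02 (SE 0.268, adjusted p of 0.992 by edgeR's test, 0.920 with the block). *Mrpl23*, which encodes a mitochondrial ribosomal protein and was the nearest tested gene on the other side of *Tspan32*, 464299 bases away, had -0.20 (adjusted p of 0.737, 0.429 with the block). A further 2 members, *Cd37* and *Cd151*, also lie on chromosome 7, the 10 members lie on 6 chromosomes, and none is on chromosome 19, which holds *Scd1*.

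The sequences before the starts of *Cd81*, *Tspan32* and *Cd53* are shown, which are among the members with the largest or most separated differences. *Cd151*, whose groups did not overlap either, is not shown. The sequence of *Cd81* is rich in CpG and GC boxes, whereas those of *Tspan32* and *Cd53* have few CpG and no GC box. Each is the 250 bases upstream of a RefSeq start on GRCm38.p6, written 5′ to 3′ on the strand of the gene, and capitals mark matches on either strand to the motifs searched (CTTTGA for TCF/LEF, CCGGAA for ETS, GGGCGG for the GC box, TGTGGT for RUNX and TATAAA for TATA). No 2 matches overlap in these windows, which are chr7:143052500-143052749 for *Cd81*, chr7:143004796-143005045 for *Tspan32*, both on the plus strand, and chr3:106790150-106790399 on the minus strand for *Cd53*.
Cd81: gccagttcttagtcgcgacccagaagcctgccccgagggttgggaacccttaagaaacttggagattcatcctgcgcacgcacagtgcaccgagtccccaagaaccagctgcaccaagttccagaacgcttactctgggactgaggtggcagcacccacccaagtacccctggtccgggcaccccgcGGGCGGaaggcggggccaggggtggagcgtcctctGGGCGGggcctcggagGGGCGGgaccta
Tspan32: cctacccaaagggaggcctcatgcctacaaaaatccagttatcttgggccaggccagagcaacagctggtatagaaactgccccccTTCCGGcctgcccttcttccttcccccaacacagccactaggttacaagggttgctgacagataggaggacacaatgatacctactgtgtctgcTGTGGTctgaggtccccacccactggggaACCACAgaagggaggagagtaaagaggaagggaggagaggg
Cd53: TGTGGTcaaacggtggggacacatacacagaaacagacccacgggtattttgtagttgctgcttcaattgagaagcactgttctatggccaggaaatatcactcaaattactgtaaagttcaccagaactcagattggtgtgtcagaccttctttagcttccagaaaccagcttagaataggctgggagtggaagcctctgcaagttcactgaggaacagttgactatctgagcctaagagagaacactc

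The *Cd81* window held 16 CpG dinucleotides and 3 GC boxes, and no match to the other motifs. The *Tspan32* window held 1 CpG, 1 ETS match and 2 RUNX matches, and that of *Cd53* held 2 CpG and 1 RUNX match. The median over all 32851 RefSeq windows of this length was 6 CpG, and the share of windows with at least 1 match was 13.8% for TCF/LEF, 12.0% for ETS, 32.7% for the GC box, 14.05% for RUNX and 12.4% for TATA. The windows of *Cd81* and *Tspan32* shared none of these matches, and any part of these motifs in the values of the genes was not tested.

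*Cd53* and *Cd37* encode the leukocyte tetraspanins that are found on most lymphocytes. *Cd53* had 563, 424 and 438 FPKM in WT and 659, 600 and 631 FPKM in *Scd-1*-/- replicates 1, 2 and 3. Every *Scd-1*-/- library lay above every WT library, and WT replicate 1 stood closest to the *Scd-1*-/- group. The log2 fold change was 0.43 (SE 0.148, 95% interval 0.0829 to 0.772), with an unadjusted p of 0.0214 and an adjusted p of 0.387 by edgeR's test (0.0589 with the block, 0.00961 to 0.945 over the 14 alternatives). *Cd53* (ENSMUSG00000040747) lies on the minus strand of chromosome 3 at 106759921 to 106790149. *Cd37* had 24.4, 19.8 and 18.3 FPKM in WT and 25.3, 22.2 and 19.6 FPKM in *Scd-1*-/- replicates, which overlapped. Its log2 fold change of 0.12 had a 95% interval of -0.270 to 0.515, so neither sign of the difference was excluded. *Cd37* (ENSMUSG00000030798) lies on the minus strand of chromosome 7 at 45233632 to 45239115.

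*Cd9*, *Cd82* and *Cd151* encode tetraspanins that associate with integrins, and Cd9 is a close relative of Cd81 in the family. The coding sequences of *Cd81* and *Cd9* were 61.7% identical, and the closest pair of members was *Tspan13* and *Tspan31*, at 66.7%. *Cd9* had 21.7, 10.9 and 10.4 FPKM in WT and 11.8, 8.44 and 9.05 FPKM in *Scd-1*-/- replicates, and replicate 1 was the highest of each genotype, the opposite of *Cd81*. Its log2 fold change was -0.54 (SE 0.323, 95% interval -1.29 to 0.212), with an adjusted p of 0.643 by edgeR's test (0.159 with the block), and it was -0.09 without WT replicate 1. *Cd151* had 5.14, 5.63 and 4.39 FPKM in WT and 4.10, 4.26 and 3.37 FPKM in *Scd-1*-/- replicates. The groups did not overlap, but the log2 fold change of -0.35 (SE 0.220, 95% interval -0.861 to 0.161) did not pass the test, with an adjusted p of 0.660 by edgeR (0.297 with the block). *Cd82* had 34.4, 32.3 and 29.1 FPKM in WT and 29.9, 28.7 and 26.2 FPKM in *Scd-1*-/- replicates, with a log2 fold change of -0.15 and a 95% interval of -0.463 to 0.153. *Cd9* lies on the minus strand of chromosome 6 at 125460266 to 125494791, *Cd82* on the minus strand of chromosome 2 at 93419111 to 93463140 and *Cd151* on the plus strand of chromosome 7 at 141467392 to 141471473.

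*Cd63*, whose product marks late endosomes and lytic granules, was the member with the fewest reads, 14, 21 and 34 counts in WT and 25, 43 and 54 counts in *Scd-1*-/- libraries. The genotypes overlapped, and replicate 1 was lowest in each. The log2 fold change was 0.77 (SE 0.438, 95% interval -0.245 to 1.79), with an adjusted p of 0.620 by edgeR's test (0.163 with the block). The value is uncertain for a second reason, since the pseudogene *Cd63-ps*, 98.9% identical to the coding sequence of *Cd63*, had 2, 6 and 7 counts in WT and 13, 15 and 16 counts in *Scd-1*-/- libraries, and reads of the pair may be split between them. *Cd63* lies on the plus strand of chromosome 10 at 128900989 to 128912822.

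*Tspan13* and *Tspan31*, the closest pair in coding sequence, overlapped between the genotypes. *Tspan13* had 42.2, 40.0 and 43.6 FPKM in WT and 41.3, 35.3 and 36.7 FPKM in *Scd-1*-/- replicates, with a log2 fold change of -0.13 (95% interval -0.419 to 0.167). *Tspan31* had 120, 127 and 114 FPKM in WT and 142, 124 and 129 FPKM in *Scd-1*-/- replicates, with a log2 fold change of 0.15 (95% interval -0.139 to 0.438). *Tspan13* lies on the minus strand of chromosome 12 at 36014557 to 36042500 and *Tspan31* on that of chromosome 10 at 127067280 to 127070264. The level of *Tspan31* is uncertain because 29.2% of its exonic bases lie under exons of *Cdk4*, a cell cycle kinase gene on the opposite strand that had 4627 to 6669 counts per library. Whether reads were counted by strand is not given in the sources used here.

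Replicate 1 stood apart from replicates 2 and 3 in both genotypes for several tetraspanins, and not in one direction. Relative to the mean of the other two, replicate 1 was lower on the log2 scale for *Cd81*, by -1.03 in WT and -0.62 in *Scd-1*-/- Teff, and for *Cd63*, by -1.02 and -1.0. It was higher for *Tspan32*, by 0.95 and 1.16, and for *Cd9*, by 1.07 and 0.45. Across all genes, the first principal component (42.95% of the variance) separated the replicate 1 libraries from the rest, and the second (36.29%) separated the genotypes. The difference between same-numbered libraries was, on the log2 scale, -1.45, -1.85 and -1.86 for *Cd81* in replicates 1, 2 and 3, -0.72, -1.04 and -0.81 for *Tspan32*, 0.80, 1.03 and 0.58 for *Cd63*, and -0.88, -0.36 and -0.14 for *Cd9*. Of the 10 members, 6 were lower in *Scd-1*-/- Teff in all 3 pairs and 3 were higher in all 3, beside 22.8% and 22.1% of all genes tested, and *Tspan31* was mixed. In replicates 2 and 3 alone, the log2 fold change was -1.86 for *Cd81* (adjusted p of 0.000267 by edgeR's test), -0.94 for *Tspan32* (adjusted p of 0.0209) and 0.55 for *Cd53* (adjusted p of 0.00961), where 12.6% of all genes had an adjusted p under 0.05. What a replicate number stands for is not given in the labels, and its part in these values was not tested.

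**Figure D3:**
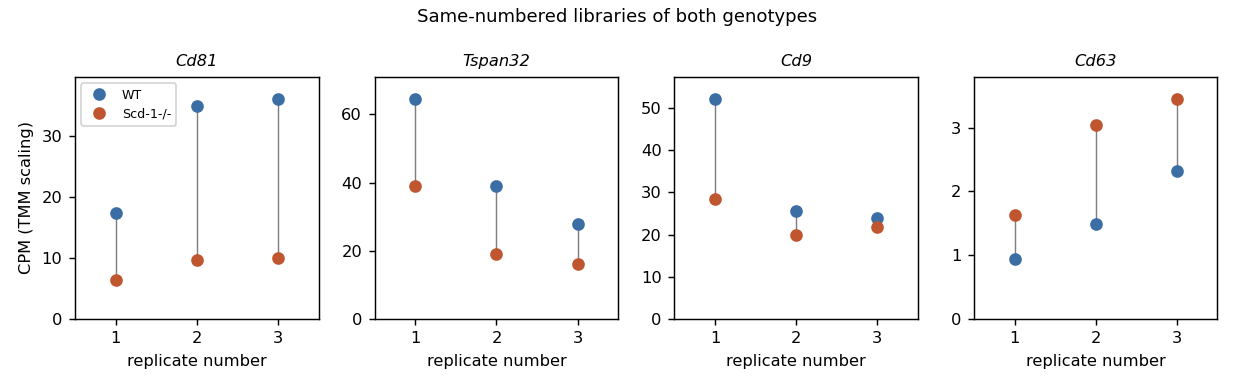
CPM (counts scaled to the library total multiplied by its TMM factor) of *Cd81*, *Tspan32*, *Cd9* and *Cd63* in each library. A vertical line joins the WT and the *Scd-1*-/- library of each replicate number, and each axis starts at 0. In all 3 pairs, the *Scd-1*-/- library lies below the WT library for *Cd81*, *Tspan32* and *Cd9* and above it for *Cd63*. Within each genotype, replicate 1 is the lowest library for *Cd81* and *Cd63* and the highest for *Tspan32* and *Cd9*.

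Of 21 other tetraspanin genes, 9 were tested and 12 lay under the FPKM minimum. By the fit on genotype alone, 0 of the 9 passed either call rule (2 had an unadjusted p under 0.05, beside 10.1% of all genes), and their median log2 fold change was -0.12. The most abundant were *Tspan14*, which encodes a partner of the protease Adam10, *Tspan3* and *Tspan4*. *Tspan3* went from 24.3 ± 2.14 FPKM in WT to 15.7 ± 1.02 FPKM without the desaturase, which was -0.61 on the log2 scale with an adjusted p of 0.208 by edgeR's test, which was 0.0476 with the replicate block and 0.0138 to 0.719 over its 14 alternatives. The libraries of the genotypes did not overlap for *Tspan3* and *Tspan4*, both lower in *Scd-1*-/- Teff, beside 8.32% of all genes, and they overlapped for *Tspan14*. *Tspan4* (16.9 and 15.3 FPKM in WT and *Scd-1*-/- Teff) and *Tspan14* (26.5 and 24.2 FPKM) had adjusted p of 0.853 and 0.893 by edgeR's test.

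The partners of Cd9 and Cd81 at the cell surface had a median log2 fold change of 0.03. Of the 12 tested of 15 immunoglobulin-family and other surface partners, 0 passed either call rule without the block (4 had an unadjusted p under 0.05, beside 10.1% of all genes), and with it 3 had an adjusted p under 0.05, beside 4.7% of all genes. These were *Ifitm1* and *Ifitm2*, higher, and *Ptgfrn*, lower. *Ptgfrn* reached the FPKM minimum only through WT Teff, with a mean of 1.50 FPKM there against 0.554 FPKM without the desaturase. Its call is therefore no fair part of the comparison with all genes. *Ifitm1* and *Ifitm2* encode interferon-induced membrane proteins, of which Ifitm1 is known to associate with Cd81. *Ifitm1* had 491, 150 and 142 FPKM in WT and 745, 902 and 988 FPKM in *Scd-1*-/- replicates, a log2 fold change of 1.76 (SE 0.483), with an adjusted p of 0.261 by edgeR's test, 0.0342 with the block and 3.57e-06 to 0.798 over its alternatives. Without WT replicate 1 it was 2.63, with an adjusted p of 0.00321, and passed both call rules. *Ifitm2* had 593, 590 and 605 FPKM in WT and 872, 1166 and 1192 FPKM in *Scd-1*-/- replicates, 0.88 (SE 0.145), with an adjusted p of 0.0847, 0.0109 with the block and 5.77e-05 to 0.435 over its alternatives. *Scd-1*-/- libraries were above all WT libraries for both, and WT replicate 1 of *Ifitm1* stood well above the other WT libraries. *Ptgfrn*, which encodes a direct partner of Cd9 and Cd81, had 0.517, 1.73 and 2.25 FPKM in WT and 0.217, 0.860 and 0.586 FPKM in *Scd-1*-/- replicates, -1.40 (SE 0.610), with an adjusted p of 0.501, 0.0196 with the block, where it also passed the thresholds of the study, and 0.00538 to 0.995 over its alternatives. *Cd8b1*, the CD8 beta chain and the third most abundant gene here, went from 298 ± 28.5 to 239 ± 52.6 FPKM, which did not pass edgeR's test (adjusted p of 0.647). Over its alternatives the adjusted p was 0.0382 to 0.997, the lowest in replicates 2 and 3 alone, where 12.6% of all genes were under 0.05.

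Integrins and their linkers to the cytoskeleton, with which Cd9, Cd82 and Cd151 associate, had 15 of 18 genes tested, of which 0 passed either call rule (1 had an unadjusted p under 0.05, beside 10.1% of all genes), with a median of -0.10. *Itgae*, the integrin alpha chain CD103, was under the FPKM minimum, with 77, 124 and 73 counts in WT and 8, 17 and 25 counts in *Scd-1*-/- libraries, which did not overlap. With no FPKM minimum it was -2.51 on the log2 scale, with an adjusted p of 0.0485 by edgeR's test, and passed both call rules. *Itgb7*, the integrin beta 7 chain of gut homing, had 385, 379 and 317 FPKM in WT and 281, 245 and 222 FPKM in *Scd-1*-/- replicates, which did not overlap, a log2 fold change of -0.51 (SE 0.145, adjusted p of 0.277 by edgeR's test, 0.0293 with the block, 0.0251 to 0.834 over its alternatives). *Ezr* (170 and 190 FPKM) and *Fermt3* (245 and 211 FPKM), which encode ezrin and kindlin-3, had log2 fold changes of 0.18 and -0.19. Of 9 ADAM proteases and surface proteins known to be shed, 8 were tested and 0 passed either call rule, with a median of -0.16. Of the 8, 2 had an unadjusted p under 0.05, beside 10.1% of all genes. The blocked fit gave 1 higher and 1 lower at an adjusted p under 0.05, beside 4.7% of all genes. In this list, *Adam8* (32.5 and 58.2 FPKM) had a log2 fold change of 0.86 and *Notch1* (10.1 and 6.74 FPKM) -0.56, with adjusted p by edgeR's test of 0.396 for both without the block and of 0.0148 and 0.0338 with it (0.00104 to 0.945 and 0.0317 to 0.960 over their alternatives). *Adam8* was 1.26 and passed both call rules without WT replicate 1 (adjusted p of 0.0460), while *Adam19* (18.8 and 18.4 FPKM) had -0.01 and *Cd27* (12.6 and 10.01 FPKM), which encodes a costimulatory receptor, had -0.31. The adjusted p of *Cd27* was 0.790 by edgeR's test. Over its alternatives *Cd27* had -0.747 to -0.157, with an adjusted p of 0.0168 in replicates 2 and 3 alone, where 12.6% of all genes were under 0.05.

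The compartments in which Cd63 resides were described by a pair of lists. For endosomal sorting and exosome release, 14 of 16 genes were tested and 0 passed either call rule, with a median of 0.11. Of the 14, 2 had an unadjusted p under 0.05, beside 10.1% of all genes. The genotypes did not overlap for 4 of the 14, beside 16% of all genes, with *Rab27a*, *Rab11a* and *Chmp4b* higher and *Rab35* lower in *Scd-1*-/- Teff. *Rab27a*, which encodes a GTPase of granule and exosome release, had 13.3 and 17.2 FPKM in WT and *Scd-1*-/- Teff (0.39 on the log2 scale, adjusted p of 0.409 by edgeR's test), and *Rab11a*, of recycling endosomes, 9.98 and 13.6 FPKM (0.47, adjusted p of 0.407). In replicates 2 and 3 alone, both had an adjusted p under 0.05 by this test (0.0427 and 0.0143), as did *Sdcbp*, which encodes the exosome adaptor syntenin (0.62, adjusted p of 0.0217), beside 12.6% of all genes. *Chmp4b* and *Pdcd6ip*, which encode a subunit and a partner of the ESCRT machinery, had log2 fold changes of 0.09 and 0.16, and *Rab35* had -0.11. For the late endosome and lysosome membrane, 14 of 16 were tested and 0 passed (1 had an unadjusted p under 0.05, beside 10.1% of all genes), with a median of 0.08. *Lamp1*, a major lysosomal membrane protein and marker of degranulation, had means of 133 ± 10.9 FPKM (WT) and 131 ± 14.9 FPKM (*Scd-1*-/-), with an interval of the log2 fold change of -0.298 to 0.307. *Laptm5* and *Tmem192* had 0.26 and -0.22, and neither passed the test. *Lamp2* was the 1 gene of this list whose groups did not overlap (3.60 and 4.77 FPKM, 0.43 on the log2 scale, adjusted p of 0.482 by edgeR's test, 0.0296 in replicates 2 and 3 alone).

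**Figure D4:**
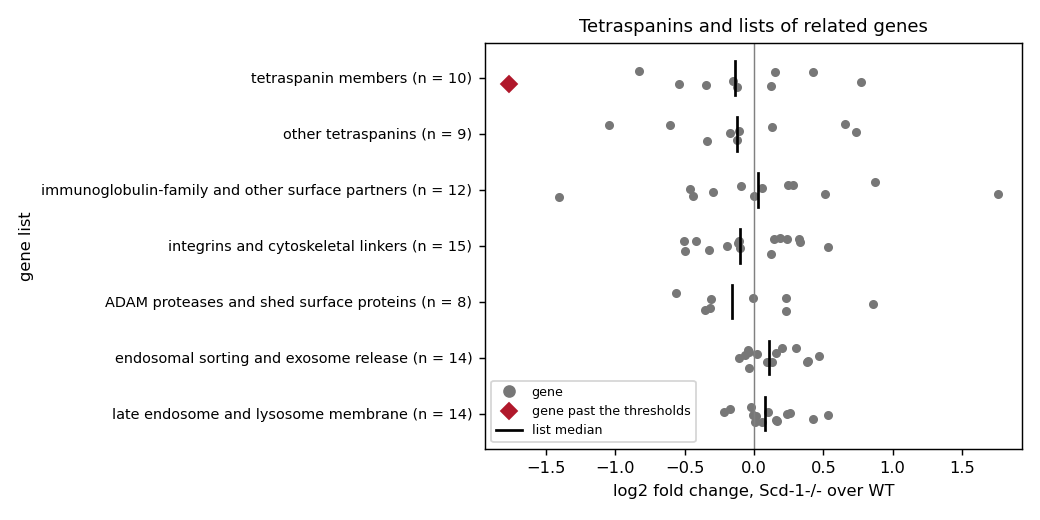
Log2 fold change of *Scd-1*-/- over WT Teff for each tested gene of the tetraspanins and of 6 lists of related genes, with 1 point per gene and a bar at the median of each list. The medians lie between -0.16 for the ADAM proteases and shed surface proteins and 0.11 for endosomal sorting and exosome release, and *Cd81* is the 1 gene shown past the thresholds of the study.

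Library totals were between 14034479 and 15866216 counts, with TMM scaling factors of 0.986 to 1.03, so depth differed little between genotypes. Where 0 reads were counted, up to 3 remain possible, equal to 0.189 to 0.214 CPM (counts scaled to the library total), which covers counting error only.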

How the data were processed

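RNA of 6 libraries of CD8+ Teff, 3 WT and 3 *Scd-1*-/-, was sequenced, with groups and replicate numbers taken from the sample labels. The methods name a stranded total RNA kit and column extraction, whereas the labels name poly(A) RNA, Trizol and another kit. Per the submitters' processing notes, FastQC, HISAT2 and StringTie 1.3.0 were used with GRCm38. The authors deposited raw whole-number read counts for each gene, without normalization. The authors also deposited FPKM values, and the ratio of count to FPKM differed between libraries only by their totals (to within 4.36e-05, relative, over the 10354 genes with at least 20 counts in every library), so no TMM factor is in them. How reads matching several genes were counted is not given in the sources used here.

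Counts were tested in R 4.3.3 with edgeR 4.0.16 (quasi-likelihood, TMM, genotype only) over the 9627 genes that reached a mean FPKM of 1, with Benjamini-Hochberg adjustment over all of them. Genes were called past the study's own thresholds (1 or more on the log2 scale in either direction and an unadjusted p below 0.001) and, separately, at an adjusted p under 0.05. The SE was the log2 fold change divided by the square root of F. The test was tried on simulated data. With 3 libraries per group, exact permutation over libraries cannot reach significance for any gene. Alternatives were DESeq2 1.42.0, limma 3.58.1 on log2(FPKM + 1) and log2(FPKM + 0.1), median-ratio scaling, no FPKM minimum, a minimum of 5, a replicate block, replicates 2 and 3 alone, and each library left out.

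The deviations of same-numbered libraries from their group means correlated across genes (r of 0.595, 0.306 and 0.470 for replicates 1, 2 and 3), so the numbers were taken to pair the libraries, and blocked values are given where they change a call. These genes are not independent of each other. When replicates 2 and 3 were crossed, r was 0.380 (WT 3 with *Scd-1*-/- 2) and 0.180 (WT 2 with *Scd-1*-/- 3). The first of these exceeded the 0.306 of the same-numbered replicates 2, so the correlations do not settle how replicates 2 and 3 match.

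The members and the lists of related genes and markers were chosen with earlier results of these data known. Named genes are the members, *Scd1*, the neighbours of called members and, per list, genes past a call rule without the block and the 3 most abundant. *Ptgfrn*, *Notch1*, *Cdk4*, *R74862*, *Cd63-ps*, *Cd79a*, *Cd79b*, *Klrb1c*, *Ncr1*, *Klra8*, *Kit*, *Mcpt8*, *Fcer1a*, *Cpa3*, *Itgax*, *Rab27a*, *Rab11a*, *Sdcbp*, *Lamp2*, *Cd8a*, *Itgae*, the markers listed at 0 and the genes in the closing section were named after their values were seen. Positions are from GENCODE M21, which matched 34344 of 34745 identifiers. Promoter windows were from RefSeq (GRCm38.p6), which matched all 10 members. Some genes of the lists are not reported here, and the counts for the lists leave them out.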

Additional observations from a re-analysis of the deposited data

How the results depend on the processing

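None of the 10 tetraspanins changed sign under any alternative run (14 each, 13 for *Cd63* and *Cd151*). *Cd81*, the 1 member past the thresholds of the study, did not pass them in the 2 limma fits (0 members each, beside 0.582% and 0.727% of all genes). It had -1.44 on log2(FPKM + 1) and -1.71 on log2(FPKM + 0.1). Leaving out 1 library gave 0 to 1 members past the thresholds, beside 0.26% to 1.69% of all genes. Members with an adjusted p under 0.05, 0 in edgeR's unblocked test, were 1 by DESeq2, 1 with no FPKM minimum (0.489% of all genes), 2 with the replicate block, 3 in replicates 2 and 3 alone and 0 to 1 when 1 library was left out (0.0208% to 1.89% of all genes). Of the 72 tested genes of the lists, 0 passed the thresholds in edgeR's unblocked test and 1 by DESeq2 (1.67% of all genes). With no minimum, 1 (*Itgae*) of 89 tested passed them (0.861% of all genes). With the replicate block 1 passed them (1.91%). It was *Ptgfrn*, which reached the FPKM minimum only through WT Teff. In replicates 2 and 3 alone 8 passed them (3.83%), and 0 to 3 when 1 library was left out (0.26% to 1.69%). Those with an adjusted p under 0.05 numbered 0, beside 3 by DESeq2, 2 with no minimum (*Ifitm2* and *Itgae*), 7 with the replicate block, 22 in replicates 2 and 3 alone and 0 to 3 when 1 library was left out. Over all genes, the shares called by the thresholds and by adjusted p were 1.91% and 4.7% with the block and 3.83% and 12.6% in replicates 2 and 3 alone. The block moved the calls over all genes from 71 to 184 past the thresholds and from 11 to 452 by adjusted p, and among members and named genes it changed no call other than those given with their blocked values. Over all genes, leaving out replicate 1 of WT or of *Scd-1*-/- gave 143 or 163 genes past the thresholds, and leaving out another library gave 25 to 31. The cause of these shifts was not tested.

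Of the genes with alternatives run, 3 changed sign, each with a fold change near 0. *Adam19* (-0.01) went to 0.0052 with the replicate block and to 0.086 in replicates 2 and 3 alone, and leaving out 1 library gave -0.112 to 0.183. *Lamp1* (0.0044) went to -0.0222 and -0.0223 in the limma fits with pseudocounts of 1 and 0.1 and to -0.00504 with no minimum, and leaving out 1 library gave -0.0719 to 0.0886. *Tssc4* (-0.02) went to 0.00589 and 0.0197 in the same limma fits and to 0.0379 with the replicate block, and leaving out 1 library gave -0.272 to 0.150. Depth limits *Cd63* most, with 14 to 54 counts per library.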

Other observations

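Among tetraspanin genes outside the 10 members, 3 known mainly from other tissues or cells were detected, and for each the libraries of the genotypes overlapped. *Rom1*, which encodes a photoreceptor outer segment protein, had 17.6, 7.56 and 8.02 FPKM in WT and 19.7, 15.1 and 17.1 FPKM in *Scd-1*-/- replicates 1, 2 and 3, so that WT replicate 1 lay among the *Scd-1*-/- libraries. *Upk1a*, which encodes a protein of the urothelial plaque, had 4.84, 1.74 and 1.72 FPKM in WT and 4.62, 4.34 and 4.77 FPKM in *Scd-1*-/- replicates, so that WT replicate 1 lay above every *Scd-1*-/- library and the other WT libraries below them. *Tspan9*, known from platelets, had 7.05, 10.1 and 11.0 FPKM in WT and 7.72, 2.98 and 2.60 FPKM in *Scd-1*-/- replicates, so that *Scd-1*-/- replicate 1 lay within the WT range. Their log2 fold changes were 0.66, 0.73 and -1.05, with adjusted p of 0.585, 0.643 and 0.453 by edgeR's quasi-likelihood test (0.0864, 0.190 and 0.114 with the replicate block), and none had exons shared with another annotated gene. Single libraries decided these values: without WT replicate 1, *Rom1* was 1.19 (adjusted p of 0.0460 by the same test, past the thresholds of the study) and *Upk1a* 1.44 (adjusted p of 0.0620), and without *Scd-1*-/- replicate 1, *Tspan9* was -1.72 (adjusted p of 0.0128, past the thresholds). The adjusted p ranged over the alternatives from 0.00525 to 0.997 for *Rom1*, from 0.0109 to 0.997 for *Upk1a* and from 0.000102 to 0.997 for *Tspan9*.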
